A study of Mus musculus with 8 samples.

Results

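The genes described are 9 genes of regulated exocytosis, measured in sorted intestinal tuft cells: the SNARE genes Stx1a, Snap25, Snap23, Vamp2 and Vamp8, the calcium sensor gene Syt7, the complexin gene Cplx2, the small GTPase gene Rab3a and the vesicle membrane protein gene Syp. They were taken by symbol from the table of counts per gene, where each matched 1 of 35199 rows, and 7 of the 9 passed the filter on low counts. The cells were ZSgreen-positive, EpCAM-high live cells sorted from the jejunum of Dclk1-DTR-ZSgreen mice, in which Dclk1 regulatory sequence on a bacterial artificial chromosome drives a reporter and the diphtheria toxin receptor, so that both groups carried the transgene and the sort selected cells in which that sequence was active. Scopolamine, a nonselective muscarinic receptor antagonist, was delivered to 4 mice from implanted osmotic pumps for 7 days, the daily dose being 0.5 mg per kg, and 4 sham mice received sodium chloride over the same time. The study's methods state an age of 8 to 10 weeks at pump implantation. Each library is 1 mouse, and the libraries are numbered here scopolamine 1 to 4 and sham 1 to 4.

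A secretory vesicle fuses when an R-SNARE on the vesicle (a VAMP) zippers with a syntaxin and a Qbc-SNARE of the SNAP-25 family on the plasma membrane. Many synaptotagmins sense calcium, complexins hold the assembled SNAREs until calcium enters, and Rab3 and Rab27 GTPases bring vesicles to the membrane. Neurons and endocrine cells use STX1A, SNAP-25 and VAMP2 for this, while many epithelial and haematopoietic cells use SNAP-23 with VAMP8. Tuft cells are chemosensory epithelial cells known for releasing acetylcholine, eicosanoids and cytokines, and their neighbours, the enteroendocrine cells, release hormones from dense-core granules.

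The libraries held 14343362 to 20857433 counts with scopolamine and 25769940 to 41428916 in sham, so that every sham library was the deeper and depth cannot be told apart from treatment. Sham 1 and sham 3 were amplified from 200 pg of RNA with 15 cycles and the other 6 libraries from 1000 pg with 10. Levels are CPM after TMM scaling, and 3 counts, taken as the floor of detection, equal 0.0729 to 0.212 CPM. The 16 tuft cell markers summed to 14913 to 26018 CPM with scopolamine and 18501 to 22356 in sham, and none was at 0 in any library (Dclk1 was the most abundant). The 24 enteroendocrine markers summed to 483 to 1134 CPM with scopolamine and 181 to 1535 in sham, led by Sct, which tuft cells also express, and Chgb. Of these markers 18 were tested, 15 had a higher and 3 a lower mean with scopolamine, and edgeR called 0. Over all 12849 genes tested, 6305 had a higher and 6544 a lower mean. DESeq2 called 1.31% of all genes to which it gave an adjusted p. DESeq2 called 2 of the 24, Scg3 (adjusted p = 0.0275) and Resp18 (adjusted p = 0.00885), both higher with scopolamine, which edgeR's filter had removed. The enterocyte list (Fabp1, Apoa1) summed to 3322 to 7159 and 2563 to 6719 CPM, the goblet and Paneth list (Tff3, Zg16) to 731 to 3600 and 372 to 1446, and the T lymphocyte list (Ptprc, Gzma) to 64.0 to 228 and 57.9 to 286, with scopolamine and in sham. All 15 enterocyte and all 13 goblet and Paneth markers had a higher mean with scopolamine, against 6305 of all 12849 genes tested. Of these markers edgeR called 0 and DESeq2 2, against 1.31% of all genes with DESeq2. Both were enterocyte genes, Slc5a1 (DESeq2 adjusted p = 0.00464) and Anpep (DESeq2 adjusted p = 0.0399). These 4 marker genes were named after their values were seen, and neither tool called a marker of the other lists. The 14 enteric neuron and glia markers summed to 7.51 to 32.0 and 4.76 to 17.3 CPM, mostly Nefl and S100b, and the glial genes Gfap and Sox10 were at 0 in every library. In RNA from a pool of sorted cells, a gene carried by fewer cells and a gene with less RNA per cell cannot be told apart.

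The 9 genes spanned a wide range of levels. Per kilobase of annotated exon, Vamp8 was highest at 194 ± 33.7 CPM per kb (SD, n = 8 libraries), above Vamp2 in 8 of 8 libraries. Vamp2 followed at 15.1 ± 4.20 CPM per kb and lay above Snap23 in 7 of 8 libraries. Snap23 (6.49 ± 1.31 CPM per kb) and Rab3a (5.65 ± 2.02) had overlapping ranges, Snap23 being the higher in 6 of 8 libraries, and Rab3a lay above Stx1a in 7. Stx1a (2.14 ± 2.62 CPM per kb), Cplx2 (1.02 ± 0.69) and Syp (0.75 ± 0.88) were not separated beyond their spread, Stx1a lying above Cplx2, and Cplx2 above Syp, in 5 of 8 libraries each. With the longest basic transcript as the length, Cplx2 and Syp changed places. Snap25 (0.090 ± 0.17 CPM per kb) and Syt7 (0.072 ± 0.093) were lowest, with Syp above Snap25 in 8 of 8 libraries.

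No member changed significantly with scopolamine. Of the 7 members past the filter 0 passed edgeR's quasi-likelihood test at a Benjamini-Hochberg adjusted p under 0.1, against 0% (0 of 12849 genes tested) in the background. An unadjusted p under 0.05 was reached by 0 of the 7 members and by 5.99% of all genes tested (770). DESeq2 called 190 of 14462 genes, or 1.31%, and 0 of the 7 members to which it gave an adjusted p. It gave Snap25 and Stx1a none. The median log2 fold change was -0.30 over the 7 members and -0.01 over all genes tested. In none of the 9 did the groups separate, where 3.88% of genes tested had groups that did not overlap. The fitted mean was lower with scopolamine for Stx1a, Snap23, Vamp2, Vamp8, Cplx2 and Syp, and higher for Snap25, Syt7 and Rab3a. A check for a library deposited more than once found none (chi-square over degrees of freedom of 72.7 or more for each pair in a group), and each was counted as 1 replicate.

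**Figure D1:**
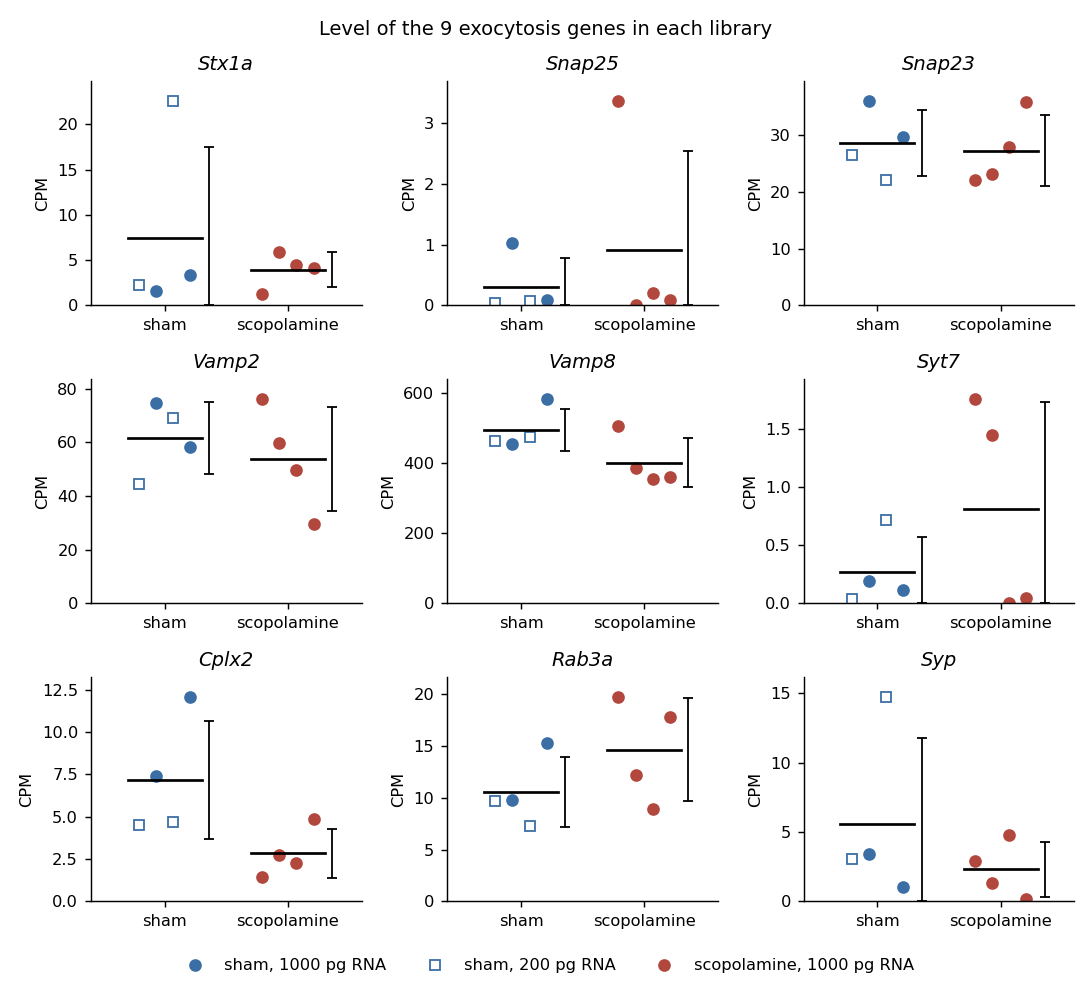
Level of each gene in CPM (vertical axes start at 0) in the 4 sham and 4 scopolamine libraries. Points are libraries, horizontal bars group means and whiskers 1 SD, cut at 0. Open squares mark the sham libraries from 200 pg. In each panel the points of the groups overlap, and Stx1a and Syp are highest in sham 3, at 22.5 and 14.7 CPM.

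Stx1a, the plasma membrane syntaxin of neurons and endocrine cells (chromosome 5 from 135023482 to 135051100, plus strand, of GRCm38), was measured at 1.30, 5.90, 4.51 and 4.16 CPM in scopolamine 1 to 4. It was measured at 2.23, 1.58, 22.5 and 3.37 CPM in sham 1 to 4. Sham 3 was thus the highest library, with 909 counts, while 3 of the 4 scopolamine libraries exceeded each of the other sham libraries. The log2 fold change was -0.90 (SE 0.91, edgeR adjusted p = 0.901, 95% interval -2.93 to 1.12). Without sham 3 the value was 0.73, and without both low-input libraries 0.64, neither past the test, so its direction rested on sham 3. With limma-voom the value was -0.31, and with the letter of the mouse ID as a covariate -0.17. A two-sided exact permutation test on log2 CPM, over 70 assignments, gave p = 0.886, where the smallest p that 4 against 4 allow is 0.0286.

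Snap25, the Qbc-SNARE of synapses and endocrine granules (chromosome 2 from 136713453 to 136782428, plus strand), was close to the floor in most mice. Its counts were 67, 0, 3 and 2 in scopolamine 1 to 4 and 1, 42, 3 and 3 in sham 1 to 4. In CPM the 2 libraries that stood out were scopolamine 1 at 3.36 and sham 2 at 1.02, while the other 6 lay at or below 0.21, so that the gene was at or below 3 counts in 3 of 4 libraries of each group. The filter removed it, and without the filter its log2 fold change was 1.55 (SE 1.68, edgeR adjusted p = 0.782). Without scopolamine 1 it was -1.62, and without sham 2 it was 3.64. With limma-voom it was 0.50, and without the low-input libraries 0.71.

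Snap23, the broadly expressed counterpart of Snap25 (chromosome 2 from 120567671 to 120601255, plus strand), was present in every library at a similar level. It was measured at 22.0, 23.0, 27.9 and 35.7 CPM in scopolamine 1 to 4 and at 26.5, 35.9, 22.1 and 29.6 CPM in sham 1 to 4. The highest library exceeded the lowest by only 1.63-fold. Scopolamine and sham differed by a log2 fold change of -0.07 (SE 0.26, edgeR adjusted p = 0.988, 95% interval -0.65 to 0.51), and its sign turned without scopolamine 1 (0.015) or sham 2 (0.059).

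The choice between both Qbc-SNAREs was given by their ratio within each library. Per count of Snap23 there were 0.152 counts of Snap25 in scopolamine 1 and 0.0285 in sham 2, and at most 0.0076 in the other 6 libraries. On the log2 scale, with 0.5 added to each count, the mean ratio was -6.93 ± 3.09 with scopolamine and -7.53 ± 1.65 in sham (SD, n = 4 each). The difference of 0.60 was smaller than either SD (exact permutation test, two-sided, p = 0.714), and it turned to -0.80 without scopolamine 1. With 5 added to each count in place of 0.5 it was 0.99 (exact permutation test, two-sided, p = 0.457), and Snap25 had 0 to 3 counts in 6 of the 8 libraries.

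Of the vesicle SNAREs among the members, Vamp8 was the more abundant. It encodes the R-SNARE of regulated secretion in exocrine, mast and epithelial cells (chromosome 6 from 72385223 to 72390703, minus strand). Of all genes detected, 98.7% had a lower mean CPM. It was measured at 506, 386, 354 and 361 CPM in scopolamine 1 to 4 and at 463, 454, 476 and 582 CPM in sham 1 to 4. In 3 of 4 scopolamine libraries the level was below the lowest sham library, and scopolamine 1 overlapped the sham range. The log2 fold change was -0.30 (SE 0.16, edgeR adjusted p = 0.813, unadjusted p = 0.084, 95% interval -0.64 to 0.048), and the exact permutation test gave p = 0.114. The value stayed below 0 in all 17 alternatives, from -0.43 to -0.21, and passed the test in none of them. The 17 include the stricter threshold of 0.05, which cannot move a fold change.

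Vamp2, the R-SNARE of synaptic vesicles and of many endocrine granules (chromosome 11 from 69088490 to 69092384, plus strand), was measured at 76.0, 59.9, 49.7 and 29.5 CPM in scopolamine 1 to 4. In sham 1 to 4 it was measured at 44.4, 74.6, 69.3 and 58.2 CPM. The highest and the lowest library were both from scopolamine mice. The edgeR log2 fold change was -0.20 (SE 0.29, edgeR adjusted p = 0.936, 95% interval -0.83 to 0.44). It was -0.41 without scopolamine 1 and -0.00039 without scopolamine 4, and -0.33 without sham 1 and -0.092 without sham 2, so its size rested on single libraries.

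The ratio of Vamp2 to Vamp8 differed between the groups by less than its spread. There were 0.150, 0.155, 0.140 and 0.0819 counts of Vamp2 per count of Vamp8 in scopolamine 1 to 4, and 0.0958, 0.164, 0.146 and 0.1001 in sham 1 to 4. The mean log2 ratio was -2.97 ± 0.43 with scopolamine and -3.02 ± 0.39 in sham (SD, n = 4 each), a difference of 0.057 (exact permutation test, two-sided, p = 0.943). The sign of this difference turned when scopolamine 1, scopolamine 2, sham 1 or sham 4 was left out, with values of -0.063 to 0.27 over the 8 libraries left out in turn.

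Syt7, a high-affinity calcium sensor of dense-core granule and lysosome exocytosis (chromosome 19 from 10389090 to 10453180, plus strand), was found at 35, 31, 0 and 1 counts in scopolamine 1 to 4. In sham 1 to 4 it was found at 1, 8, 29 and 4 counts. The 3 libraries scopolamine 1, scopolamine 2 and sham 3 thus held most of its counts, at 1.75, 1.45 and 0.72 CPM, against at most 0.19 CPM elsewhere. The filter removed the gene, and without the filter its log2 fold change was 1.56 (SE 1.54, edgeR adjusted p = 0.763). It was 0.86 without scopolamine 1, 2.71 without sham 3 and 0.58 with limma-voom. A long noncoding RNA annotated on the opposite strand shares 384 exon bases with it, and the kit used does not mark strand.

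Cplx2, a complexin of neurons, endocrine and mast cells (chromosome 13 from 54371349 to 54383917, plus strand), had the smallest p of the members. It was measured at 1.45, 2.76, 2.26 and 4.87 CPM in scopolamine 1 to 4 and at 4.54, 7.42, 4.71 and 12.1 CPM in sham 1 to 4. Only scopolamine 4 reached into the sham range, and the other 3 scopolamine libraries lay below the lowest sham library. The log2 fold change was -1.34 (SE 0.65, edgeR unadjusted p = 0.064, adjusted p = 0.812, 95% interval -2.77 to 0.091). DESeq2 gave -1.32 (unadjusted p = 0.014, adjusted p = 0.287), and the exact permutation test gave p = 0.0857, so the difference passed neither adjusted test nor the exact test. The value was below 0 in all 17 alternatives, from -1.81 without the low-input libraries to -0.90 with the letter of the mouse ID as a covariate. Among the 17 the stricter threshold of 0.05 leaves the fold change as it was. Of the mice with the letter M, scopolamine 1 to 3 were below sham 1, and of those with the letter N, scopolamine 4 lay within the range of sham 2 to 4.

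Rab3a, a vesicle GTPase of neurons and endocrine cells (chromosome 8 from 70754679 to 70758677, plus strand), was measured at 19.7, 12.2, 8.96 and 17.8 CPM in scopolamine 1 to 4. In sham 1 to 4 it was measured at 9.73, 9.77, 7.31 and 15.3 CPM. Scopolamine 1 and 4 lay above every sham library, and scopolamine 2 and 3 within the sham range. The log2 fold change was 0.48 (SE 0.42, edgeR adjusted p = 0.884, 95% interval -0.44 to 1.40), 0.30 without scopolamine 1 and 0.19 without the low-input libraries. The gene Mpv17l2 on the opposite strand, at 129 to 232 CPM, shares 29 exon bases with Rab3a, so reads of those bases could belong to either gene.

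Syp, which encodes synaptophysin of the vesicle membrane (chromosome X from 7638471 to 7653256, plus strand), was measured at 2.91, 1.31, 4.80 and 0.19 CPM in scopolamine 1 to 4. In sham 1 to 4 it was measured at 3.07, 3.43, 14.7 and 1.01 CPM. Sham 3 was again the highest library, and the range of 77.8-fold across libraries was the widest of the members with a count in each. The lowest library, scopolamine 4, held 4 counts of Syp, close to the floor of 3. The log2 fold change was -1.28 (SE 1.05, edgeR adjusted p = 0.880, 95% interval -3.60 to 1.05), and 0.043 without the low-input libraries. It was -0.13 without sham 3 alone, -1.92 without scopolamine 3 and -2.41 with the letter of the mouse ID as a covariate. An antisense transcript shares 875 exon bases with Syp.

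**Figure D2:**
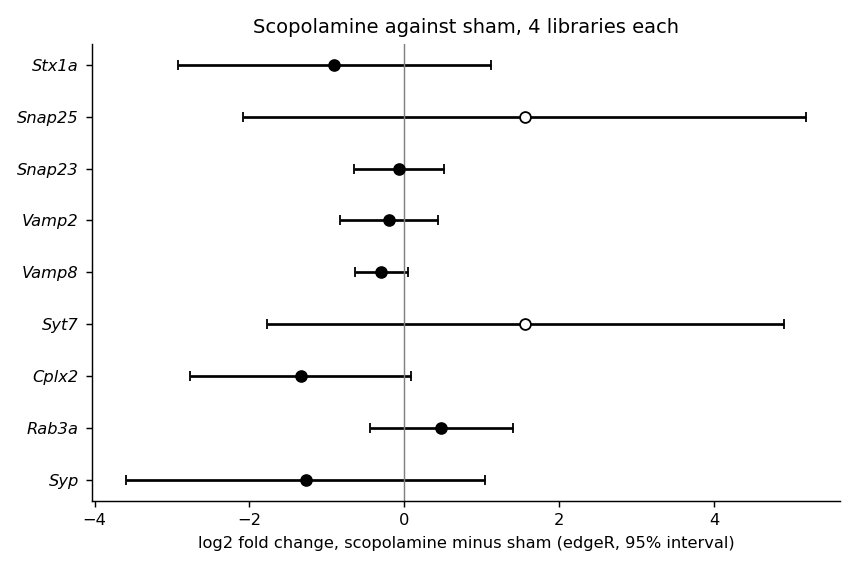
Log2 fold change of each gene (scopolamine minus sham, edgeR) with its 95% interval. Filled points are the 7 genes past the filter and open points the 2 fitted without it. Each interval includes 0, and those of Vamp8, Snap23 and Vamp2 are the narrowest.

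The paralogs that accompany each member were compared per kilobase of exon, within families drawn up after the counts had been seen. The totals cover only the genes listed here, with 6 VAMP genes as R-SNAREs and 7 syntaxin genes, and any others were left out. Of the listed R-SNAREs with an annotated length, Vamp8 made up 74.9% to 82.3% of the total per library. Vamp3, the ubiquitous cellubrevin, came next, and Vamp2 made up 3.79% to 7.55%. Vamp7 was left out for want of a length in the annotation used. Of the Qbc-SNAREs, Snap47 led with 41.1% to 67.2%, Snap23 made up 14.1% to 25.8% and Snap25 0 to 1.77%, or 0 to 4.22% with the longest basic transcript as the length. Of the listed syntaxins, Stx4a and Stx3, which serve epithelial plasma membranes, held most of the total. Stx4a had the higher mean share by exon length and Stx3 by the longest transcript. Stx1a made up 1.61% to 7.59% in 7 libraries and 16.6% in sham 3.

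The Rab3 family was led by Rab3d, a GTPase of exocrine granules, with 65.4% to 83.4%. Rab3a made up 17.7% ± 4.74 with scopolamine and 11.5% ± 2.61 in sham (SD, n = 4 each), a difference that did not pass the exact permutation test (two-sided, p = 0.0857). Syngr2, the broadly expressed synaptogyrin, made up 94.6% to 97.6% of the synaptophysin and synaptogyrin family, and Syp 0.014% to 0.78%, or 0.024% to 1.32% by the longest transcript. Among the synaptotagmins Syt11, which does not bind calcium, had the highest mean share (53.9%) and ranged from 29.7% to 83.9%, with Syt12 above it in scopolamine 4 and sham 4, and Syt7 made up 0 to 4.78%. In 6 of 8 libraries Cplx2 was the only complexin with a count. The exceptions were scopolamine 2, where 35 counts of Cplx1 brought its share down to 42.3%, and sham 2, where it was 95.8%.

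**Figure D3:**
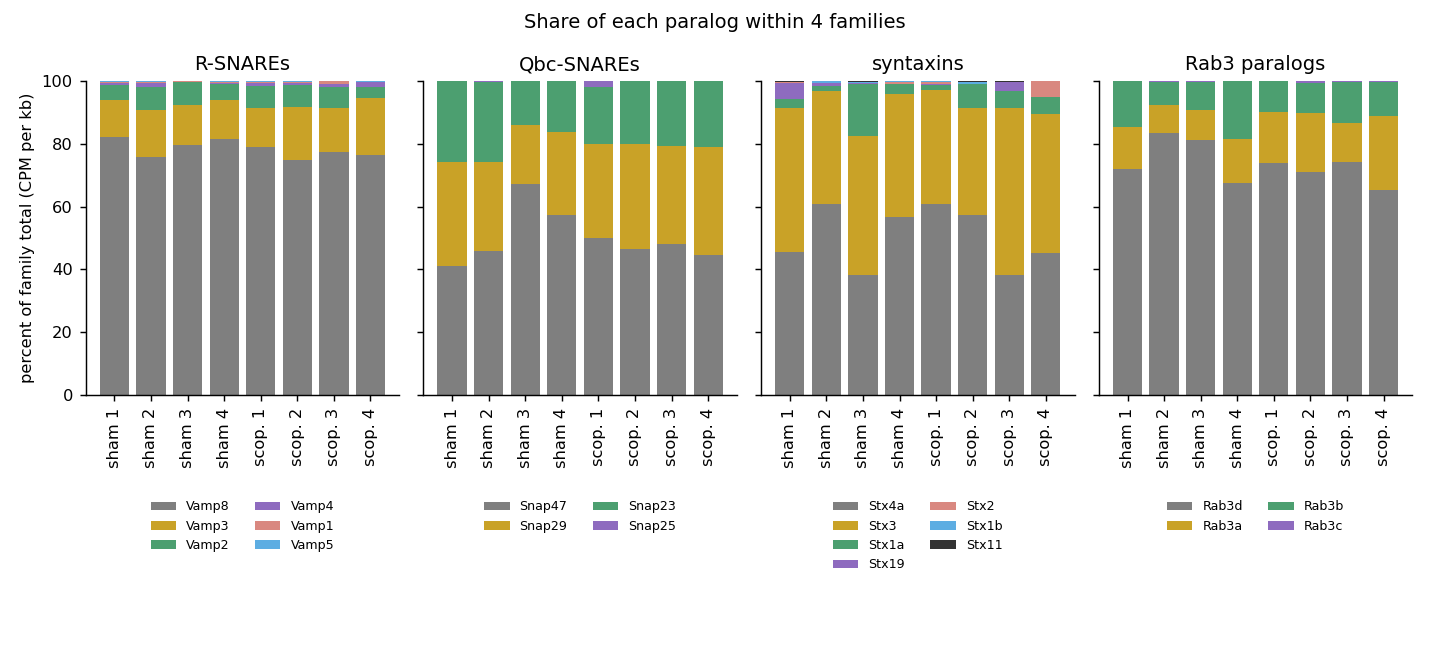
Share of each paralog in the summed CPM per kb of its family, per library, for R-SNAREs, Qbc-SNAREs, syntaxins and Rab3 paralogs. Bars add up to 100%. Vamp8 holds 74.9% to 82.3% of the listed R-SNAREs in the 8 libraries. Snap25 holds at most 1.77% of the Qbc-SNAREs with exon length as the scale.

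The wider machinery was covered by 10 lists with 120 genes, the members included. Of these genes 76 passed the filter, 32 with a higher and 44 with a lower mean with scopolamine (6305 and 6544 of all genes tested). Their median log2 fold change was -0.05, and 0 were called by edgeR. An unadjusted p under 0.05 was seen for 3 of the 76, all higher with scopolamine, where 5.99% of all genes tested had such a p and 3.33% had it with a higher mean. These were the synaptotagmin gene Syt13 (log2 fold change 2.86, SE 1.24), the Rab27 effector gene Sytl2 (3.12, SE 1.25) and the active zone gene Rims4 (3.12, SE 1.14), each with an edgeR adjusted p of 0.812, and all were named after their values were seen except Syt13. The 11 genes at 0 in every library were the vesicular glutamate and GABA transporter genes Slc17a6, Slc17a7 and Slc32a1, the Doc2 and synaptotagmin genes Doc2a, Doc2b, Syt6, Syt8, Syt9 and Syt16, Cplx4 and Syngr3.

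In the 7 listed syntaxins, 6 were tested, 1 with a higher and 5 with a lower mean (median log2 fold change -0.63). Stx4a (17.0 ± 4.13 CPM per kb, SD, n = 8) and Stx3 (14.2 ± 3.98) were the most abundant of them. In the 4 Qbc-SNAREs, 3 were tested, and Snap47 (16.6 ± 5.31 CPM per kb) and Snap29 (9.53 ± 2.17) exceeded Snap23. All 7 listed R-SNAREs were tested, 3 with a higher and 4 with a lower mean, and Vamp3 stood at 34.3 ± 4.11 CPM per kb. None of these differences passed the test.

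Of the 17 genes for SM proteins, priming and recycling, 13 were tested, 2 with a higher and 11 with a lower mean (median log2 fold change -0.19). The SNARE disassembly genes Napa (49.4 ± 2.87 CPM per kb) and Nsf (17.4 ± 3.39) and the syntaxin partner Stxbp2 (35.0 ± 7.01) were the most abundant. Of the 26 secretory Rabs and effectors 18 were tested, 10 with a higher and 8 with a lower mean, led by Rab3d (29.1 ± 7.92 CPM per kb), Rab27b (14.2 ± 3.28) and Rab27a (11.1 ± 2.54). All 9 exocyst genes, for the complex that tethers vesicles at the plasma membrane, were tested, 4 with a higher and 5 with a lower mean, led by Exoc7, Exoc3 and Exoc6.

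Of the 18 vesicle membrane proteins and synapsins, 10 were tested, 5 in each direction, and Syngr2 (253 ± 49.6 CPM per kb), Scamp2 (84.7 ± 11.1) and Scamp4 (72.7 ± 18.4) were the most abundant. Of the 8 transmitter transporters of vesicles 4 were tested, 2 in each direction. The monoamine transporter gene Slc18a1 was at 13.0 CPM with scopolamine and 6.47 CPM in sham, Slc18a3, the acetylcholine transporter gene, at 3.61 and 4.53 CPM, and the nucleotide transporter gene Slc17a9 at 0.87 and 3.12 CPM, and none passed the test. The Slc18a3 mean with scopolamine rested on scopolamine 3, at 10.2 CPM against 1.08 to 1.70 CPM in the other 3. The Slc17a9 mean in sham rested on sham 3, at 10.2 CPM against 0.038 to 1.51 CPM in the other 3.

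Only 5 of the 20 synaptotagmin and Doc2 genes were tested, 4 with a higher and 1 with a lower mean, led by Syt11 (1.53 ± 0.99 CPM per kb), Syt13 (0.50 ± 0.55) and Doc2g (0.41 ± 0.47). The list held the only machinery gene that DESeq2 called, Syt5, a sensor of neuronal and endocrine vesicles (DESeq2 adjusted p = 0.0958), which is 1 of the 84 listed genes with a DESeq2 adjusted p, where DESeq2 called 1.31% of all genes with one. The edgeR filter had removed it, and its edgeR adjusted p without the filter was 0.587. It had 44, 17, 1 and 1 counts in scopolamine 1 to 4 and 0 in every sham library. Scopolamine 3 and 4 thus lay under the floor of 3 counts. The pooled sham floor, 3 counts over the whole sham group, was 0.021 CPM, below the floor of 3 counts in any single library. Against this pooled floor the pooled level with scopolamine, 0.83 CPM, was at least 39.6-fold higher, and a single-library floor would give a smaller ratio. Without scopolamine 1 the pooled Syt5 level was at least 16.3-fold higher than the same pooled floor. Of the 4 complexins Cplx2 alone was tested. Cplx3 had at most 8 counts, and all 35 counts of Cplx1 came from scopolamine 2.

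The level of enteroendocrine transcripts differed between mice and was set beside the members. The mean log2 CPM over the 24 enteroendocrine markers was -1.48 to -1.35 in sham 1, sham 2 and sham 4, and 0.75 to 3.66 in sham 3 and the 4 scopolamine libraries. The libraries thus fell into clusters of 3 and 5, neither with the 6 libraries a correlation needs, so none is given.

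Stx1a was at 1.58 to 3.37 CPM in the 3 libraries of low score and at 1.30 to 22.5 CPM in the 5 of high score. Syt7 was at 0.038 to 0.19 CPM in the former and 0 to 1.75 CPM in the latter. Syp was at 1.01 to 3.43 CPM and 0.19 to 14.7 CPM, and Snap25 at 0.038 to 1.02 CPM and 0 to 3.36 CPM. Cplx2 was at 4.54 to 12.1 CPM in the low-score and 1.45 to 4.87 CPM in the high-score libraries. Vamp8 was at 454 to 582 CPM and 354 to 506 CPM, and Snap23 at 26.5 to 35.9 CPM and 22.0 to 35.7 CPM. Vamp2 was at 44.4 to 74.6 CPM and 29.5 to 76.0 CPM, and Rab3a at 9.73 to 15.3 CPM and 7.31 to 19.7 CPM. In 6 of the 9 members (Stx1a, Syt7, Syp, Snap25, Vamp2 and Rab3a) the range of the 5 high-score libraries enclosed that of the 3 low-score libraries. In the other 3 (Cplx2, Vamp8 and Snap23) the ranges overlapped in part. By number alone, a range over 5 libraries tends to be wider than a range over 3. All 4 scopolamine libraries were of high score, so the score and the treatment cannot be told apart outside the sham group. The library with the highest score, scopolamine 2, had no count of Snap25, and sham 3, with the second highest score, was the highest for Stx1a and Syp. The part that enteroendocrine transcripts have in these values was not tested.

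**Figure D4:**
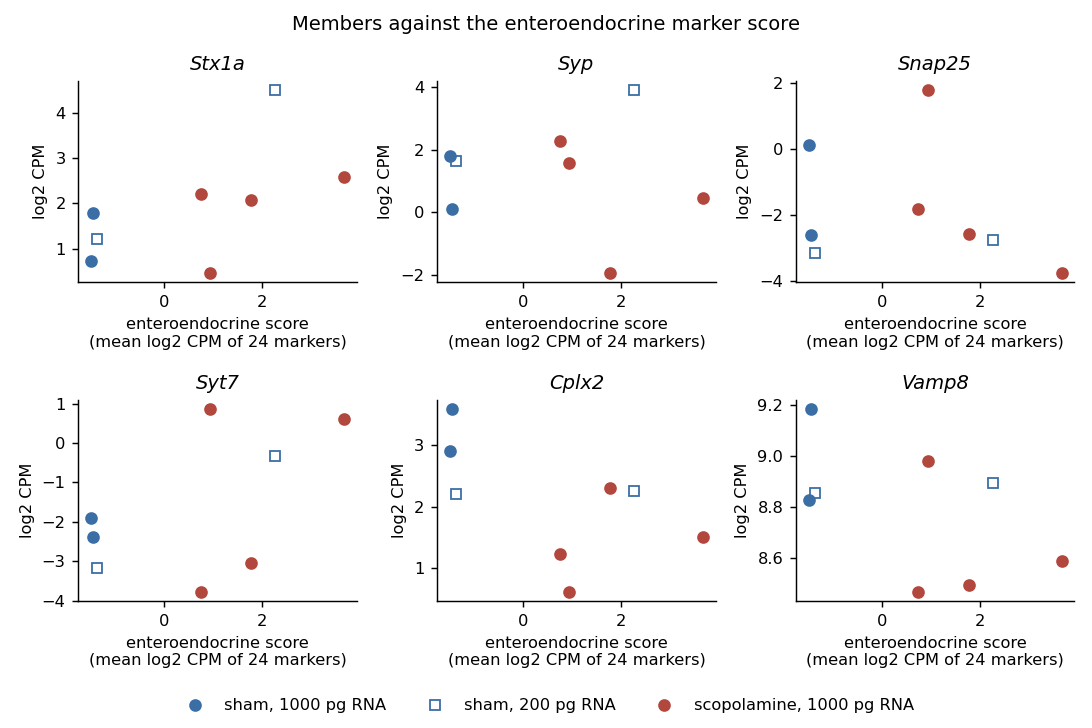
Log2 CPM of 6 members against the enteroendocrine score, the mean log2 CPM of 24 markers, 1 point per library. Sham 1, 2 and 4 lie below -1.3 on the score and the other 5 libraries at 0.75 or above. The Stx1a and Syp panels show sham 3 (open square at a score of 2.27) as the highest point.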

How the data were processed

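The authors amplified cDNA from sorted cells with an unstranded kit, converted and trimmed reads with bcl2fastq 2.20, assigned them to the GRCm38 transcriptome with kallisto 0.44.0 and deposited estimated counts per gene, summed with tximport and not normalized. The annotation release is not given in the sources used here. The values are whole numbers. Groups came from the treatment label, and RNA input and cycles from the study's source data.

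Counts were tested with edgeR 4.0.16 in R 4.3.3, by its quasi-likelihood test after TMM scaling and filterByExpr, and called at a Benjamini-Hochberg adjusted p under 0.1. Members that the filter removed were fitted without it. The alternatives tried were limma-voom from limma 3.58.1, DESeq2 1.42.0, other scalings, filters and thresholds, a covariate for the letter of the mouse ID, and leaving out low-input or single libraries. Single genes used exact permutation tests of log2 CPM (prior count 2). Exon lengths and coordinates came from GENCODE M21 (GRCm38), which held 213 of 214 listed symbols. All 9 members were named, with the 3 genes highest per kb and any called gene in each machinery list, and the 2 highest in each marker list (tuft, enteroendocrine, enterocyte, goblet and Paneth, T lymphocyte, enteric neuron and glia), except that some marker genes are not reported here. Members and lists were chosen with earlier results of these data known.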

Additional observations from a re-analysis of the deposited data

Results flagged for a closer look

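A library was singled out where its gap to the nearest other library of the group, divided by the group's range, exceeded Dixon's 95% critical value for 4 samples. Of 40 groups of 4 values examined 10 gave such a library. Chance gives about 1 in 20 for independent groups of normally distributed values, and the distribution was not tested. These groups are not independent, since a share repeats its gene's level, and the complexin shares were singled out because the other 3 values of the group were tied at 100%. Snap25 stood out in scopolamine 1 at 3.36 CPM (others at most 0.21) and in sham 2 at 1.02 CPM (others at most 0.090), and so did its share of the Qbc-SNAREs, at 1.77% and 0.456% in the same libraries. Stx1a stood out in sham 3 at 22.5 CPM (others at most 3.37), as did its share of the listed syntaxins at 16.6%. Vamp8 stood out in sham 4 at 582 CPM (others 454 to 476). The log2 ratio of Vamp2 to Vamp8 stood out in scopolamine 4 at -3.61 (others -2.83 to -2.69). The share of Cplx2 in the complexins was 42.3% in scopolamine 2 and 95.8% in sham 2, and 100% in the other 6 libraries. The causes of these values were not tested.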

How the results depend on the processing

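No member was called under any of the 17 alternatives that tested it. Snap25, Syt7 and Syp were not tested with at least 10 counts in every library, and DESeq2 gave Snap25 and Stx1a no adjusted p. An adjusted p under 0.05 in place of 0.1 could add no call, since the fit was the same. The number of genes called was 0 with edgeR, 190 with DESeq2, 9 without the 2 sham libraries from 200 pg, and 0 to 2 when single libraries were left out. Of the machinery genes 1 (Syt5) was called by DESeq2. Directions turned as follows, and the cause was not tested. Snap25 was at -1.62 without scopolamine 1, within a range up to 3.64 with single libraries left out. Snap23 was at 0.084 with the mouse ID covariate, 0.015 without scopolamine 1 and 0.059 without sham 2 (single libraries left out, -0.24 to 0.059). Stx1a was at 0.64 without the low-input libraries and 0.73 without sham 3 (single libraries left out, -1.24 to 0.73), and Syp at 0.043 without the low-input libraries. The difference in the log2 ratio of Snap25 to Snap23 was -0.29 without the low-input libraries and -0.80 to 1.61 with single libraries left out. That of Vamp2 to Vamp8 was -0.0018 and -0.063 to 0.27. It was -0.021 without scopolamine 1, -0.036 without scopolamine 2, -0.063 without sham 1 and -0.042 without sham 4. The longest transcript as the length was an alternative chosen after seeing the data. With it Vamp8 made up 72.9% and Vamp2 8.82% of the listed R-SNAREs, against 78.4% and 6.12%. The mean share of Snap25 was 0.73% against 0.31% and that of Syp 0.44% against 0.26%. The correlations with the enteroendocrine score and their alternatives were not run, because the libraries fell into clusters of 3 and 5. No paired analysis was run, because the groups were separate mice and the labels do not match mice between them. Snap25 and Syt7 had counts near the floor in most libraries, and their intervals were the widest of the members.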
